A study of Mus musculus with 16 samples.

Results

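Oligodendrocyte precursor and lineage genes are described here in the dentate gyrus of aged p16 wild-type and p16 knockout mice, at rest and after running. The 8 members were taken by gene name, with earlier results of these data known: Pdgfra, Cspg4, Olig1, Olig2, Sox10, Gpr17, Bcas1 and Enpp6. They are 8 of the 24421 gene names in the abundance tables. All 8 passed the filter on low values (a mean of at least 0.1 TPM) and were among the 17317 genes tested. TPM is a transcript share corrected for gene length, with an equal total in every library.

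The mice were C57BL/6 males aged 1 year, of genotype p16Ink4a +/+ (p16 WT) or p16Ink4a -/- (p16 KO), either sedentary (CTL) or given a running wheel for 12 days (RUN). The sedentary groups are called p16 WT CTL and p16 KO CTL, and the running groups p16 WT RUN and p16 KO RUN. There were 4 mRNA libraries per group, made from total RNA and numbered as replicates 1 to 16 over the 16 libraries, and each library pooled 2 animals. The knockout was constitutive, had been made in FVB mice and bred onto C57BL/6, and kept a functional p19Arf, the second product of the Cdkn2a locus. It was therefore not restricted to any cell type, and the RNA came from all cells of the dissected tissue. Set A compared p16 KO RUN with p16 KO CTL, and Set B compared p16 KO CTL with p16 WT CTL. Set C compared p16 WT RUN with p16 WT CTL. Set D compared p16 KO RUN with p16 WT CTL, and Set E compared it with p16 WT RUN. The interaction of genotype and running is Set A minus Set C. Sets that share a group are not independent of each other: p16 KO CTL, for example, is the tested group of Set B and the reference of Set A.

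Oligodendrocyte precursor cells are the dividing glia of the adult brain that make new myelinating oligodendrocytes. They are recognised by the PDGF receptor alpha (Pdgfra) and the NG2 proteoglycan (Cspg4). The transcription factors Olig1, Olig2 and Sox10 are kept through the whole lineage, from precursor to myelinating cell. As precursors commit to differentiation they pass through a stage marked by the receptor Gpr17, and then by Bcas1 and the phosphodiesterase Enpp6, before myelin proteins such as Mbp are made in bulk. Learning of motor skills is known to engage this lineage in adult mice.

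The promoters of 4 of the 8 members had an entry in the RefSeq promoter table used here (build GRCm38.p6, 250 bases before to 50 bases after the annotated start). Those of Olig2, which was called in 2 of the comparisons, and of Pdgfra and Cspg4, the 2 precursor surface proteins, which were called in none, are shown to give the sequence context of the 3 genes. Capitals mark an E-box (CANNTG, the word read by bHLH factors, the family of Olig1 and Olig2) or the words ACAAAG and ACAATG (read by SOX factors, the family of Sox10), searched on both strands.
Olig2, chr16:91225300-91225599, plus strand: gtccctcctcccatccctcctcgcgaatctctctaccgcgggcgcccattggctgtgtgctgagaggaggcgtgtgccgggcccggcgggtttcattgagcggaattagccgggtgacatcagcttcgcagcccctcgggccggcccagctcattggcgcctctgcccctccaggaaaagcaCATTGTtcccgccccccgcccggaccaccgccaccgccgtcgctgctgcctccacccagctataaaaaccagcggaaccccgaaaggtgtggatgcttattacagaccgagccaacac
Pdgfra, chr5:75152001-75152300, plus strand: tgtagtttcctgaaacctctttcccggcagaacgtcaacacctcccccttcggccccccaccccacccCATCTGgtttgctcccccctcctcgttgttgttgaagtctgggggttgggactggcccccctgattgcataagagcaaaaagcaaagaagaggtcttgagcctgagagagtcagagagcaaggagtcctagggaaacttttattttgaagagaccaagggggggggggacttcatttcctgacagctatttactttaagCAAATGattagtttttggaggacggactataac
Cspg4, chr9:56864854-56865153, plus strand: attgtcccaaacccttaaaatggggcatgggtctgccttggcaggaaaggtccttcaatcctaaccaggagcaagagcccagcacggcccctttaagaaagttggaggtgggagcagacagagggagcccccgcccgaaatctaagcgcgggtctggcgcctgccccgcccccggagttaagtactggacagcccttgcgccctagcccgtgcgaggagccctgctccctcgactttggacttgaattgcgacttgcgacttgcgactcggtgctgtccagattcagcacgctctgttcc
The Olig2 promoter held 1 ACAATG, read on the minus strand, and no E-box. The Pdgfra promoter held 2 E-boxes and neither SOX word, and that of Cspg4 held none of the 3 words. The promoter of Enpp6 (chr8:46986637-46986936) held 1 ACAATG and no E-box. No printed word overlapped another. Of 32851 promoters of the same length, 72.3% held at least 1 E-box, 18.7% an ACAAAG and 12.6% an ACAATG, so that these are common words. Their presence is a description of the letters and says nothing of binding.

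In level, Olig1 stood first, with a mean of 105.7 ± 16.1 TPM (SD, n = 16 libraries; range 83.1 to 130.4). Bcas1 followed with 41.9 ± 12.8 TPM, and all its libraries, up to 67.2, lay below the lowest library of Olig1. Olig2 (23.5 ± 3.73 TPM), Sox10 (23.4 ± 2.74 TPM), Pdgfra (22.8 ± 2.02 TPM) and Gpr17 (22.8 ± 5.43 TPM) came next and did not differ beyond their spread. Bcas1 went down to 25.0 TPM and so overlapped the range of Olig2 (16.6 to 29.1). Cspg4 was lower, with 7.51 ± 1.02 TPM and a highest library of 9.42, below the lowest Gpr17 library of 13.8. Enpp6 was the lowest of the 8, with 1.59 ± 0.49 TPM and at most 2.43. Its coverage per base, 2.13 to 10.0 against 170.5 to 680.3 for Olig1, was also the lowest of the 8. The tables hold no read counts, so the counting error of single values is not known.

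Libraries also differed within groups and in coverage. The summed level of 9 RNAs retained in the nucleus (Malat1, Neat1, Meg3 and others) was 486.4 to 985.3 TPM in p16 WT CTL replicate 2 and p16 KO CTL replicates 6 and 7, against 1841 to 2545 TPM in the other 13 libraries. The same 3 libraries had the 3 lowest sums of 7 endothelial genes (48.9 to 65.7 TPM against 85.4 to 129.3) and the 3 highest sums of 8 astrocyte genes (3899 to 4562 TPM against 3061 to 3799) and of 8 microglial genes (582.8 to 696.4 TPM against 454.7 to 547.2). They were also lowest in proliferation genes (2.45 to 3.26 TPM against 3.93 to 8.03) and in mural genes of vessels (79.9 to 96.3 TPM against 96.8 to 142.2). In p16 KO CTL replicate 7 choroid plexus genes summed to 214.9 TPM, against at most 64.65 TPM in the other 13 libraries. All 3 libraries low in nuclear RNA are sedentary and 2 of them are p16 KO CTL, so the calls of Sets A and B are also given without them. The median coverage relative to the other libraries ran from 0.614 to 0.875 in p16 WT RUN and from 0.780 to 0.883 in p16 KO RUN, lower than in every sedentary library (0.913 to 1.96), so that coverage and running cannot be told apart. Cdkn2a, the locus of the knockout, reached 0.586 TPM at rest and 0.475 TPM after running in p16 WT mice, 0.344 and 0.413 TPM in p16 KO mice, and was listed at 0 in at least 1 library of each group. Its gene-level value includes p19Arf and therefore does not check the labels.

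**Figure D1:**
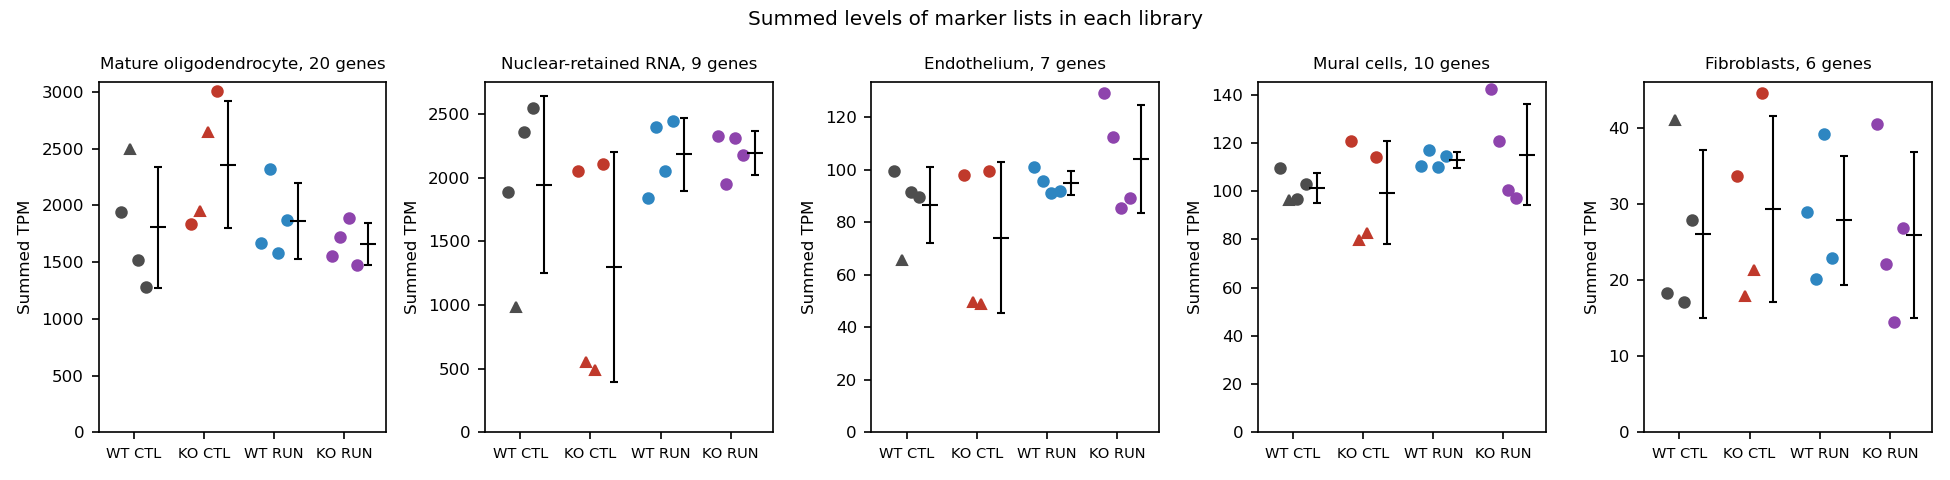
Summed TPM of 5 marker lists (vertical axes) in each of the 4 libraries per group (horizontal axis), with the mean and SD as black bars. The triangles are the 3 libraries low in nuclear RNA, which lie between 486.4 and 985.3 TPM in that panel, below all others.

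Set B asked what loss of p16 changed in sedentary mice. Here 4 of the 8 members rose in p16 KO CTL: the 3 transcription factors Olig1, Olig2 and Sox10, and Gpr17, the receptor of committed precursors. No member fell. Over all tested genes 3.15% were higher and 3.54% lower at the same threshold, an unadjusted p under 0.05 in limma. No member had an adjusted p under 0.05 (Benjamini-Hochberg over 17317 genes, 0.625 for each of the 4), and nor did any other gene in this set. In a bulk sample, more cells of a type and more RNA per cell cannot be told apart.

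Olig2, a bHLH factor required to make oligodendrocyte precursors, measured 19.3, 21.2, 21.0 and 21.7 TPM in the p16 WT CTL libraries. In p16 KO CTL it measured 22.1, 23.9, 24.6 and 28.02 TPM. The unscaled TPM ranges did not meet, although after scaling of the libraries 1 p16 KO CTL library fell within the p16 WT CTL range. The log2 difference was 0.30 ± 0.10 (SE, limma p = 0.0119, exact permutation p = 0.0571, 4 against 4 libraries).

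Olig1, its close relative that promotes maturation, measured 88.7, 108.4, 85.8 and 95.8 TPM in p16 WT CTL and 94.4, 122.8, 127.0 and 112.5 TPM in p16 KO CTL. Of the 4 p16 KO CTL libraries, 3 lay above all p16 WT CTL libraries and replicate 5 lay among them. The log2 difference was 0.33 ± 0.14 (SE, limma p = 0.0397, exact permutation p = 0.0571).

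Sox10, an SRY-related factor that drives the myelin genes, measured 23.2, 24.4, 21.7 and 17.6 TPM in p16 WT CTL and 24.3, 26.0, 25.8 and 28.6 TPM in p16 KO CTL. Replicate 4 of p16 WT CTL was the lowest of all 16 libraries and replicate 8 of p16 KO CTL the highest. The groups touched at their inner ends only, and the log2 difference was 0.34 ± 0.13 (SE, limma p = 0.0250, exact permutation p = 0.0571).

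Gpr17 had the widest difference, with 14.7, 22.1, 24.3 and 13.8 TPM in p16 WT CTL against 25.3, 30.4, 25.4 and 22.3 TPM in p16 KO CTL. Within p16 WT CTL replicates 1 and 4 were low and replicates 2 and 3 high, and the groups overlapped through replicate 8 of p16 KO CTL. The log2 difference was 0.56 ± 0.20 (SE, limma p = 0.0221, exact permutation p = 0.0857).

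The surface proteins and the later stages did not pass the test. Pdgfra, the receptor that keeps precursors dividing, measured 17.9 to 23.1 TPM in p16 WT CTL and 20.6 to 25.7 TPM in p16 KO CTL, a log2 difference of 0.17 (95% interval -0.09 to 0.44). Cspg4, the NG2 proteoglycan, measured 6.69 to 7.97 TPM and 4.82 to 7.66 TPM, a difference of -0.06 (-0.38 to 0.27), and its lowest value was in replicate 7, 1 of the 3 libraries low in nuclear RNA. Bcas1, a protein of early myelinating cells, had intervals too wide to place it (0.11, -0.52 to 0.75), and so had Enpp6 (0.07, -0.70 to 0.83). Enpp6 ran from 0.709 to 2.43 TPM within p16 WT CTL alone.

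Without the 3 libraries low in nuclear RNA, 3 p16 WT CTL and 2 p16 KO CTL libraries remained. In that fit 3.19% of all genes were called higher and 3.48% lower, and none of the 4 members was called. Their log2 differences were then 0.31 for Olig2, 0.23 for Olig1, 0.39 for Sox10 and 0.52 for Gpr17, all still positive. When single libraries were left out, the call held in 8 of 8 fits for Olig2, 5 for Gpr17, 3 for Sox10 and 2 for Olig1.

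**Figure D2:**
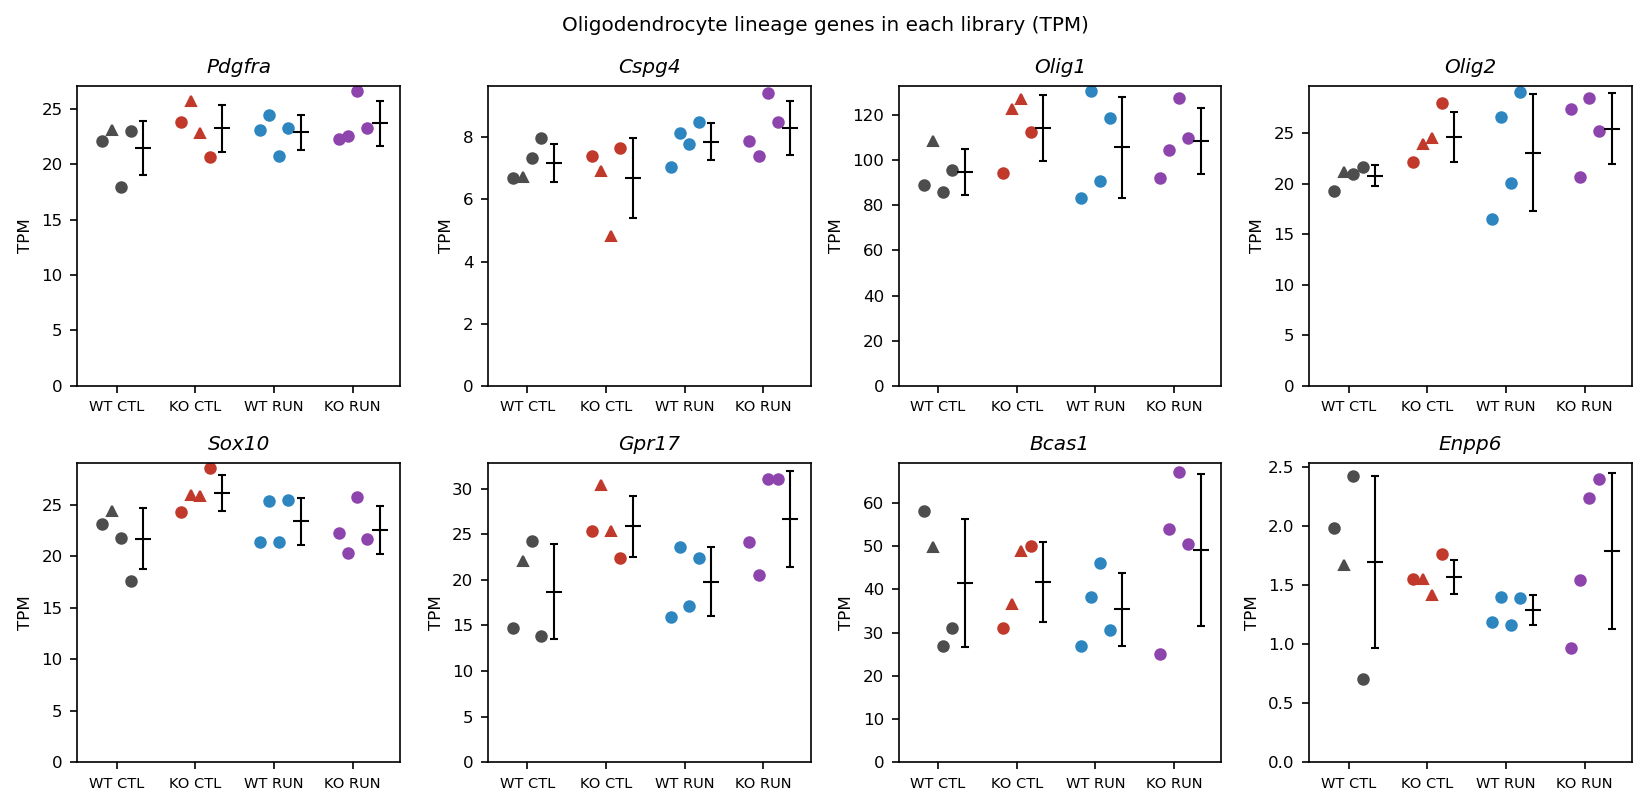
TPM of each of the 8 genes (vertical axes, from 0) in the 4 libraries of each group (horizontal axis), with the mean and SD as black bars; triangles are the 3 libraries low in nuclear RNA. Olig2 in p16 WT CTL sits between 19.3 and 21.7 TPM and in p16 KO CTL between 22.1 and 28.02 TPM, whereas Bcas1 and Enpp6 spread widely within groups.

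Set C asked what running changed in p16 wild-type mice. None of the 8 members was called by limma, at the unadjusted or the adjusted threshold. Among all tested genes 2.69% were higher and 2.13% lower. The log2 differences lay between -0.27 for Enpp6 (95% interval -1.04 to 0.50) and 0.13 for Olig1 (-0.23 to 0.49). The intervals of Gpr17 (0.09, -0.40 to 0.58), Olig1, Olig2 (0.10, -0.28 to 0.49) and Sox10 (0.10, -0.20 to 0.40) still allow changes as large as those seen in Set B. Olig2 and Olig1 were uneven within p16 WT RUN: Olig2 measured 16.6, 26.6, 20.04 and 29.1 TPM, and Olig1 83.1, 130.4, 90.8 and 118.4 TPM. Replicates 10 and 12 were high and replicates 9 and 11 low for both genes. Sox10 had the same order, with 21.4 and 21.3 TPM in replicates 9 and 11 and 25.3 and 25.5 TPM in replicates 10 and 12. Enpp6 was by contrast even, at 1.17 to 1.40 TPM.

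Set A asked what running changed in p16 knockout mice. Of the 8 members, 1 fell, Sox10, and none rose. Over all tested genes 10.7% were higher and 7.74% lower, so that a single call among 8 is near the background. Sox10 measured 22.2, 20.3, 25.8 and 21.7 TPM in p16 KO RUN, with 3 of the 4 libraries below every p16 KO CTL library and replicate 15 among them. It fell by 0.29 on the log2 scale (SE 0.09, limma p = 0.0125, adjusted p = 0.206, exact permutation p = 0.0571). The call held in each of the 8 fits that left out 1 library. Without p16 KO CTL replicates 6 and 7 the difference was -0.25 and was not called.

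The other transcription factors stayed close to their p16 KO CTL level or spread around it. Olig2 measured 27.4, 20.6, 28.5 and 25.3 TPM in p16 KO RUN, with 1 library below and none above the p16 KO CTL range after scaling. Olig1 measured 92.0, 104.5, 127.4 and 109.8 TPM, a log2 difference of -0.14 (95% interval -0.45 to 0.17). Gpr17 measured 24.1, 20.5, 31.1 and 31.0 TPM, a difference of -0.03 (-0.37 to 0.31). Cspg4 measured 7.89, 7.41, 9.42 and 8.48 TPM, a difference of 0.26 (-0.07 to 0.59) that was 0.13 without p16 KO CTL replicate 7, 0.10 with the nuclear RNA score in the model and 0.12 without the 3 libraries low in nuclear RNA. After scaling its replicates 15 and 16 lay above all p16 KO CTL libraries (in unscaled TPM replicate 13 did too). Cspg4 is also made by mural cells of vessels, whose 10 marker genes summed to 79.9 to 120.9 TPM in p16 KO CTL and 97.2 to 142.2 TPM in p16 KO RUN. The 2 lowest mural sums of p16 KO CTL, 79.9 and 82.5 TPM, were those of replicates 6 and 7, and replicates 5 and 8 (120.9 and 114.2 TPM) lay within the p16 KO RUN range. Of these markers 1 of 10 was called higher and none lower in Set A (10.7% of all genes were called higher), with a median log2 difference of 0.17 against 0.02 for all genes. Pdgfra is also made by fibroblasts, whose 6 markers summed to 17.9 to 44.6 TPM in p16 KO CTL and 14.5 to 40.5 TPM in p16 KO RUN, with 1 of 6 called higher. Their part in the values of Cspg4 and Pdgfra was not tested. Bcas1 (0.11, -0.57 to 0.79) and Enpp6 (0.04, -0.58 to 0.67) again had wide intervals. Bcas1 ran from 25.0 TPM in p16 KO RUN replicate 13 to 67.2 TPM in replicate 15, and Enpp6 from 0.972 to 2.41 TPM, with the lowest value in replicate 13 too.

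The interaction asked whether running acted differently in the 2 genotypes. Of the 8 members 1 was called, Sox10, against 2.95% of all genes higher and 2.54% lower. The running difference of Sox10 was lower in p16 KO than in p16 WT mice by 0.38 on the log2 scale (95% interval of the difference -0.74 to -0.03, limma adjusted p = 0.797, 16 libraries). The call held in 6 of the 16 fits without 1 library, whose values ran from -0.47 to -0.27. Without the 3 libraries low in nuclear RNA it was -0.43 and was still called, and with the nuclear RNA score in the model it was -0.33 and was not. Olig1 had an estimate of the same sign (-0.27, -0.75 to 0.21), while Bcas1 (0.31, -0.62 to 1.24) and Enpp6 (0.32, -0.65 to 1.28) were positive, and none of these passed the test.

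**Figure D3:**
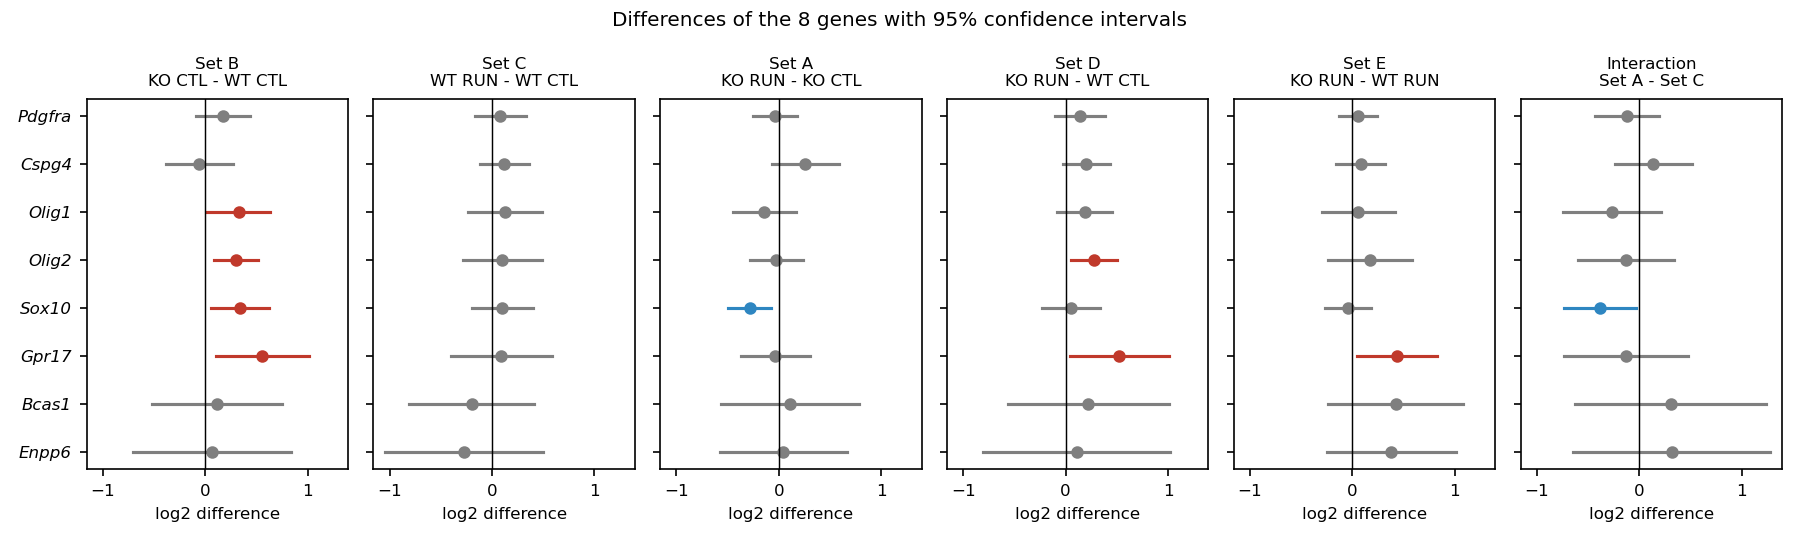
Log2 differences of scaled TPM (horizontal axes) of the 8 genes in Sets B, C, A, D and E and in the interaction, as points with 95% confidence intervals from limma; red marks a call higher, blue a call lower and grey no call at an unadjusted p under 0.05. Red points are Olig1, Olig2, Sox10 and Gpr17 in Set B, Olig2 and Gpr17 in Set D and Gpr17 in Set E, and the blue point in Set A and in the interaction is Sox10.

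Sets D and E compared p16 KO RUN with each p16 WT group. In Set D, 2 of the 8 members rose, Olig2 and Gpr17, against a background of 4.97% higher and 3.66% lower. Olig2 was higher by 0.28 ± 0.10 on the log2 scale (SE, limma p = 0.0211, adjusted p = 0.473, exact permutation p = 0.0857) and Gpr17 by 0.53 ± 0.21 (limma p = 0.0367, adjusted p = 0.534, exact permutation p = 0.114). For both genes 3 of the 4 p16 KO RUN libraries lay above all p16 WT CTL libraries after scaling and 1 library, replicate 14, did not. In unscaled TPM replicate 13 of Gpr17 (24.1 TPM) lay just below the highest p16 WT CTL library (24.3 TPM). Cspg4 was at 0.20 (95% interval -0.03 to 0.43) and not called, with 3 of 4 libraries above the p16 WT CTL range after scaling, of which replicate 13 lay inside it in unscaled TPM. In Set E, 1 member rose, Gpr17, against a background of 2.11% higher and 1.76% lower. In p16 WT RUN it measured 16.0, 23.6, 17.2 and 22.4 TPM, so that replicates 13, 15 and 16 of p16 KO RUN lay above all of these, replicate 13 by a margin that scaling removed. The log2 difference of Gpr17 in Set E was 0.43 ± 0.17 (SE, limma p = 0.0322, adjusted p = 1.00, exact permutation p = 0.143). Bcas1 (0.42, -0.23 to 1.08) and Enpp6 (0.38, -0.24 to 1.01) had estimates of like size with wider intervals, and Sox10 was at -0.05 (-0.27 to 0.18). Of the 4 comparisons in which a p16 KO group was the tested group, Gpr17 was called higher in the 3 whose reference was a p16 WT group. These 3 comparisons share libraries and do not add up to independent evidence. When 1 library was left out, the call of Gpr17 held in 4 of 8 fits in Set D and 4 of 8 in Set E, and that of Olig2 in 5 of 8 in Set D.

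Each member was also expressed as a ratio to Sox10 in the same library, a measure that does not depend on the scaling of libraries. This ratio was chosen after the levels of Sox10 had been seen. Cspg4 per Sox10 was 0.304, 0.266, 0.187 and 0.268 in p16 KO CTL and 0.355, 0.364, 0.365 and 0.391 in p16 KO RUN, so that the groups were apart. Olig2 per Sox10 was 0.910, 0.920, 0.951 and 0.981 in p16 KO CTL and 1.02 to 1.23 in p16 KO RUN, again without overlap. Pdgfra per Sox10 was 0.722 to 0.987 in p16 KO CTL and 1.00 or above in each p16 KO RUN library. The ratios of Olig1, Gpr17, Bcas1 and Enpp6 to Sox10 overlapped between these 2 groups. No share of all genes whose ratio to Sox10 parts the groups is given, so the separations are not set against a background. The log2 ratio was higher in p16 KO RUN by 0.55 for Cspg4, 0.26 for Olig2 and 0.25 for Pdgfra. Since the ratio was chosen with the fall of Sox10 known, these are descriptions with no test: Sox10 itself fell by 0.29 in Set A, whereas Olig2 (-0.03) and Pdgfra (-0.04) were near 0. Gpr17 per Sox10 was apart in Set E, with 0.746 to 0.933 in p16 WT RUN and 1.01 to 1.43 in p16 KO RUN. This was a log2 difference of 0.48, close to that of Gpr17 itself. The ratios of the other members overlapped in Set E. All ratios share the Sox10 value, which was the member called lower in Set A. Without p16 KO CTL replicates 6 and 7 the differences in Set A were 0.37 for Cspg4, 0.25 for Olig2 and 0.32 for Pdgfra.

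**Figure D4:**
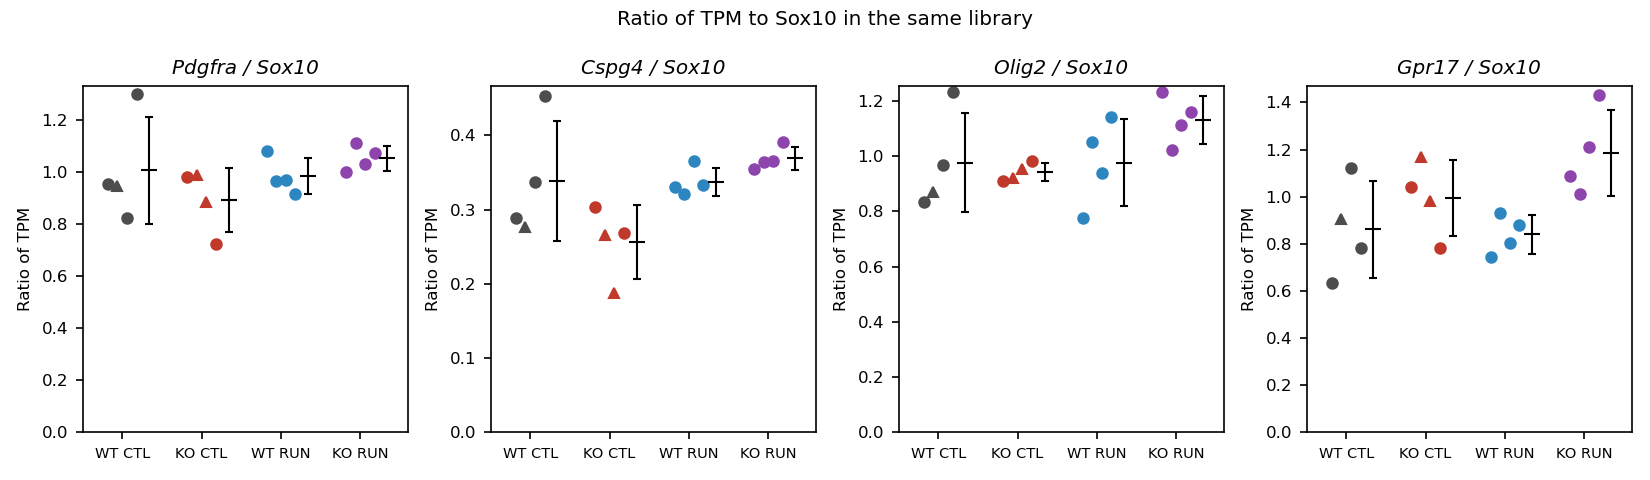
Ratio of the TPM of Pdgfra, Cspg4, Olig2 and Gpr17 to that of Sox10 in the same library (vertical axes, from 0) by group (horizontal axis), with the mean and SD as black bars and triangles for the 3 libraries low in nuclear RNA. For Pdgfra, Cspg4 and Olig2 all p16 KO RUN points lie above all p16 KO CTL points, whereas those of Gpr17 overlap.

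Across the 16 libraries, of the 28 pairs of members 26 had a positive Pearson r of log2 scaled TPM, with a median of 0.41 and a range of -0.12 to 0.77, and 7 pairs had an adjusted permutation p under 0.05 over the 28 pairs. The libraries share their scaling and RNA quality, and the groups differ in level, so these are not independent of the results above. The highest was Olig1 with Olig2 (r = 0.771, rho = 0.753, permutation p = 0.00055 and 0.00089, adjusted 0.0077 and 0.00831). It was 0.718 without the 2 libraries farthest from the median of Olig1 and 0.721 for deviations from group means. Olig1 with Sox10 had r = 0.731 and rho = 0.762 (permutation p = 0.00127 and 0.00083, adjusted 0.0119 and 0.00831), and 0.679 without the 2 farthest libraries. Pdgfra with Olig1 had r = 0.728 and rho = 0.785 (permutation p = 0.00044 and 0.00041, adjusted 0.0077 and 0.00831), and 0.678 without the 2 farthest. The pairs of Cspg4 moved with the 3 libraries low in nuclear RNA: without them r with Olig1 went from 0.062 to 0.820, with Olig2 from 0.341 to 0.808, with Gpr17 from 0.160 to 0.650, with Pdgfra from 0.077 to 0.567 with Sox10 from -0.124 to 0.357, with Bcas1 from -0.013 to 0.323 and with Enpp6 from 0.055 to 0.140, while Olig1 with Olig2 was at 0.809. The other 4 pairs with an adjusted p under 0.05 by Pearson joined Gpr17 with Olig1, Olig2 and Sox10, and Olig2 with Sox10. By Spearman 5 pairs passed, Cspg4 with Olig2 among them. The pairs of Gpr17 did not, with an adjusted Spearman permutation p of 0.05004, 0.106 and 0.0542 in the same order. For deviations from the group means no pair had an adjusted p under 0.05, with 0.117 for Pdgfra and Olig1.

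**Figure D5:**
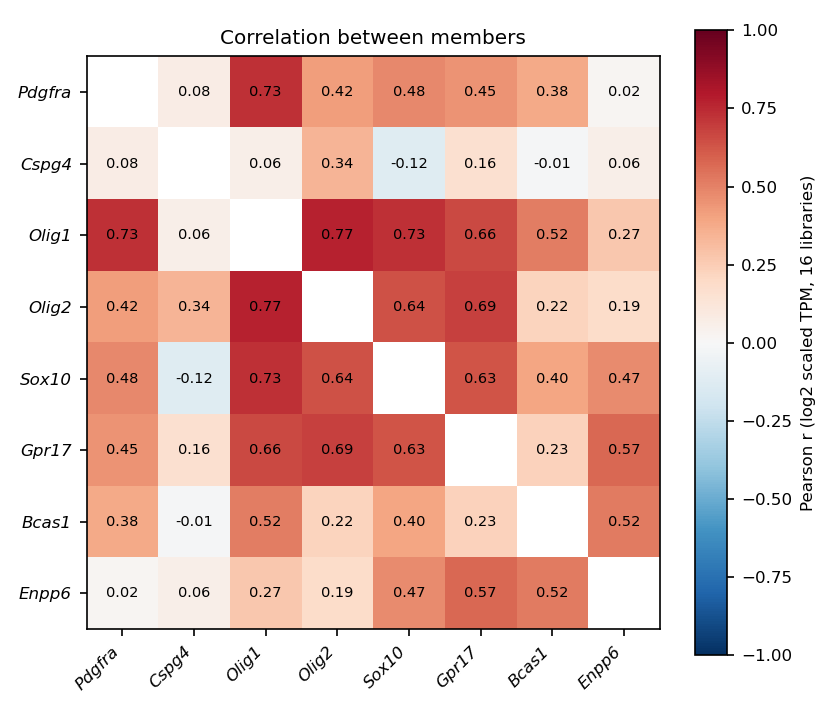
Pearson r of log2 scaled TPM between the 8 genes (both axes) over the 16 libraries, with the colour scale from -1 to 1. The highest value with all libraries is 0.77, for Olig1 and Olig2, and several values of Cspg4 are higher without the 3 libraries low in nuclear RNA.

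The genes most like each member over the 16 libraries were sought among the 14430 genes averaging 1 TPM or more, as a description with no test. Those of Sox10 were Cnp (r = 0.932), an enzyme of myelin, Cdh20 (0.903) and Mbp (0.878), the myelin basic protein. Sox10 also followed the summed level of the 20 mature oligodendrocyte genes (r = 0.885). Olig1 (0.642), Bcas1 (0.486), Olig2 (0.450), Pdgfra (0.350), Enpp6 (0.337) and Gpr17 (0.332) followed it less closely, and Cspg4 was negative (-0.286). Those of Olig1 were Slc29a3 (0.943), Ctsd (0.926), a lysosomal protease, and Fgfr3 (0.900), a receptor of fibroblast growth factors. Those of Olig2 included Lrrc3 (0.850) and Surf4 (0.842). Those of Pdgfra included Abcd3 (0.841), and those of Gpr17 were Pcdhgc3 (0.840), Abtb2 (0.834) and Magt1 (0.832). Those of Cspg4 were Fgf11 (0.904), the entry named Mir491 (0.842) and Spata1 (0.808). Those of Bcas1 were Glyctk (0.873), Pxmp4 (0.834) and Fbxo36 (0.768), and those of Enpp6 were Csnk1e (0.823), 1110020A21Rik (0.793) and Mfsd9 (0.769). The level of Cspg4 also went with that of the nuclear RNAs (r = 0.678). Those of Sox10 (-0.515), Olig1 (-0.501), Pdgfra (-0.491), Gpr17 (-0.374) and Bcas1 (-0.278) ran against it, and those of Enpp6 (-0.127) and Olig2 (-0.104) were closer to 0. Sox10 also ran against the summed level of the 9 granule neuron markers (-0.703), and so did Olig1 (-0.556), Olig2 (-0.483) and Bcas1 (-0.459). Pdgfra (-0.33), Gpr17 (-0.15) and Enpp6 (-0.10) did so less, and Cspg4 was positive (0.10). These are descriptions over 16 libraries that share groups and scaling, and the part of other cell types in the calls of Set B was not tested. With the nuclear RNA score added to the model 1 of the 8 members was called in Set B, with no share of all genes given for that fit.

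Of 15 further precursor genes, 3 rose and 1 fell in Set A (10.7% of all genes were called higher and 7.74% lower), with 6 of 15 positive and a median log2 difference of -0.05 against 0.02 for all genes. The 3 were Tnr, an extracellular matrix protein (60.2 ± 9.83 to 82.0 ± 5.34 TPM, log2 difference 0.39, limma adjusted p = 0.151), Megf11 (6.81 ± 1.17 to 9.88 ± 1.60 TPM, 0.47) and Emid1 (3.81 ± 0.39 to 5.21 ± 0.35 TPM, 0.38). C1ql1, a secreted protein of precursors, fell by 0.20. In Set B, 1 of the 15 rose, the sialidase Neu4 (4.19 ± 0.72 to 5.51 ± 0.29 TPM, 0.46, limma adjusted p = 0.625), with 12 of 15 positive and a median of 0.20 against -0.01 for all genes. A single call among 15 is near the background of 3.15% higher. In Set D 4 rose and none fell, with 12 of 15 positive, where 4.97% of all genes were called higher. Megf11 was also called higher in Set C (6.21 ± 0.79 to 9.94 ± 3.41 TPM, 0.60), where it was the single call of the list, near the 2.69% of all genes called higher, and the call held in 3 of the 8 fits without 1 library. None of the 15 was called in Set E or in the interaction. Without the 3 libraries low in nuclear RNA the calls were 2 higher in Set A (4.9% of all genes in that fit), 2 higher in Set B (3.19%) and 7 higher in Set D (5.92%).

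The committed stage list held 16 names, of which Tmem2 and Cemip2 are the older and the newer symbol of the same gene. Its 15 genes were all tested under 1 name each, and none was called in Set A. In Set B 1 rose, the zinc transporter Tmem163 (3.21 ± 0.84 to 4.87 ± 0.85 TPM, log2 difference 0.67, limma adjusted p = 0.625). The median of this list was 0.07 in Set B and 0.00 in Set A. In Set E 1 of the 15 rose, and none was called in Set C, Set D or the interaction. A single call among 15 is near the background in Set B (3.15% of all genes higher) and in Set E (2.11%). In the fit without the 3 libraries low in nuclear RNA, Tmem163 was called higher in Set B (0.96, against 3.19% of all genes) and lower in Set A (-0.42, against 3.59%).

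Other transcription factors of the lineage and of glia, 17 tested of 20, had 3 called lower in Set A (7.74% of all genes) and none higher, with 16 of 17 negative and a median of -0.15. These were Sox9, which acts in glial specification and is kept by astrocytes (35.3 ± 2.84 to 27.4 ± 1.23 TPM, fell by 0.43 on the log2 scale, limma adjusted p = 0.124), Sox8, the close relative of Sox10 (28.4 ± 2.54 to 23.3 ± 1.83 TPM, -0.35), and Id4, an inhibitor of bHLH factors (90.3 ± 9.44 to 70.1 ± 10.7 TPM, -0.44). In each of the 3 the groups did not overlap, as in 4.55% of all tested genes in that direction. In Set B, where 3.15% of all genes were called higher, 2 of 17 rose, Sox9 (30.1 ± 3.00 to 35.3 ± 2.84 TPM, 0.29) and Zfp488, a partner of Olig2 (1.62 ± 0.10 to 2.09 ± 0.27 TPM, 0.41), with a median of 0.23. The interaction was negative and called for Sox9 (-0.33) and Sox8 (-0.32), both with an adjusted p of 0.797, against 2.54% of all genes called lower. Zeb2 was called higher in Set C (0.48, against 2.69% of all genes). Sox8 was called lower in Set E (-0.17, against 1.76%). Each was the single call of the list in that set, near the background. Sox6 is on this list and also on that of the further precursor genes. Without the 3 libraries low in nuclear RNA, 2 of the 3 calls lower remained in Set A, those of Sox9 and Sox8 (3.59% of all genes in that fit), and Zfp536 was called higher (4.9%). In Set B of that fit Sox9, Hes1, Nkx6-2 and Id4 were called higher (3.19%) and Zfp536 lower (3.48%). The 8 astrocyte markers were all negative in Set A (2 called lower) and 7 of 8 positive in Set B (1 called higher), and their part in the values of Sox9 and Id4 was not tested.

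Of 20 growth factors and receptors of the lineage, 2 fell in Set A and none rose, with a median of 0.06, and 2 of 20 is near the 7.74% of all genes called lower. Nog, a secreted inhibitor of BMP signals, went from 14.8 ± 3.57 to 9.48 ± 1.38 TPM and fell by 0.68 on the log2 scale (limma adjusted p = 0.174), and Fgfr2, a receptor of fibroblast growth factors, fell by 0.32. In Set B Nog (9.63 ± 2.56 to 14.8 ± 3.57 TPM, 0.68) and the adhesion receptor Adgrg1 (58.4 ± 7.05 to 66.3 ± 4.45 TPM, 0.25) rose, against 3.15% of all genes. In the interaction Nog was lower (-0.87) and the chemokine receptor Cxcr4 higher (0.47), both with an adjusted p of 0.797. Of all genes 2.54% were called lower and 2.95% higher there, so that 1 call each way among 20 is near the background. Cxcr4 was also called higher in Set E (4.11 ± 0.29 to 5.66 ± 0.53 TPM, 0.46, adjusted p = 1.00), where 2.11% of all genes were. Nog was at -0.33 in Set A and 0.32 in Set B without the 3 libraries low in nuclear RNA, where the call held in Set A and was lost in Set B and in the interaction (-0.51). In that fit Nog and Pdgfa, the ligand of Pdgfra, were called lower in Set A (3.59% of all genes), and Pdgfa, Pdgfb and Adgrg1 higher in Set B (3.19%). The call of Nog in Set B was also lost with the nuclear RNA score in the model, and held in 6 of the 8 fits without 1 library. With all libraries Pdgfa was not called in Set A, Set B or the interaction.

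The 20 mature oligodendrocyte genes had mostly the same signs as Sox10 in Sets A and B. In Set B all 20 had a positive log2 difference, with a median of 0.32, but only 2 rose at the threshold (3.15% of all genes did), Evi2a (20.5 ± 5.68 to 28.1 ± 3.42 TPM, 0.54) and Cnp (126.8 ± 24.0 to 160.9 ± 22.5 TPM, 0.41). In Set A 19 of 20 were negative, with a median of -0.34, and 8 fell, against 7.74% of all genes called lower. These included Evi2a (28.1 ± 3.42 to 19.1 ± 1.74 TPM, fell by 0.62, limma adjusted p = 0.118), Mbp (1244 ± 322.5 to 772.8 ± 102.1 TPM, fell by 0.72) and Cnp (160.9 ± 22.5 to 128.0 ± 8.00 TPM, fell by 0.39). In the interaction all 20 were negative, with a median of -0.53, and 3 were called (2.54% of all genes were called lower), Evi2a (-0.55), Cnp (-0.49) and Tspan2 (-0.52), each with an adjusted p of 0.797. In Set D the median of the list was 0.00 and none was called. None was called in Set E either, where all but Ermn had a negative log2 difference. The genes of a list are measured in the same libraries and are not independent. The summed level of the list ran from 1277 to 2492 TPM within p16 WT CTL and from 1832 to 3004 TPM within p16 KO CTL. Without the 3 libraries low in nuclear RNA, 3 rose in Set B (3.19% of all genes in that fit), 5 fell in Set A (3.59%) and 13 were called lower in the interaction (3.49%). With the nuclear RNA score in the model the counts were instead 0, 3 and 1, with no share of all genes given for those fits. When 1 library was left out, 3 to 11 fell in Set A, 0 to 7 rose in Set B and 0 to 12 were called lower in the interaction. For the fits without 1 library no share of all genes called is given either, so these ranges are not set against a background. The count in Set A was 3 without replicate 7 or 8 of p16 KO CTL or replicate 13 or 16 of p16 KO RUN, and p16 WT CTL replicate 2 gave the highest counts in Set B and the interaction when left out. The 9 granule neuron markers had the opposite sign in Set B (9 of 9 negative, none called), and the 7 endothelial markers were all negative in Set B (none called) and all positive in Set A (2 called higher, against 10.7% of all genes). Their sums in p16 KO CTL replicates 5 and 8 (98.1 and 99.6 TPM) were close to those of p16 WT CTL other than replicate 2 (89.6 to 99.5 TPM). The part of these other cell types in the oligodendrocyte values was not tested.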

How the data were processed

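Dentate gyrus RNA was sequenced by the authors in 16 libraries, 4 per group, with groups and replicate numbers from the sample labels. Per the labels, an mRNA library kit that keeps strand was used on total RNA. Per the submitters' processing notes, reads were handled with bcl2fastq 2.20, cutadapt 1.11, STAR and StringTie on mm10. The TPM values, per the file headers, are StringTie abundances per gene computed by the authors. The FPKM values deposited beside them come from the same run, and coverage per base, also deposited, served for relative depth. No read counts are in these tables.

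In each library 112 to 130 names had several entries, which were summed. Libraries were scaled by the median ratio to the mean library over 13226 genes of at least 1 TPM in all 16. For the 17317 genes averaging 0.1 TPM or more, log2(scaled TPM + 0.1) was compared by limma 3.58.1 (R 4.3.3), empirical Bayes with a variance trend, two-sided, 8 libraries per set and 16 for the interaction. The study's count test was replaced because the values are TPM. Calls use an unadjusted p under 0.05, the threshold of the study's methods, with Benjamini-Hochberg adjusted p beside it. Fold changes are on the log2(TPM + 0.1) scale, which understates those of low genes. Levels are unscaled TPM. Exact permutation tests were two-sided over 35 splits of 8 libraries (smallest p 0.0286), and correlations used 100000 permutations. In simulated data 96.5% to 99.5% of 200 changed genes (log2 change of 1.5) and 4.78% to 5.21% of unchanged genes were called over the 6 comparisons. The changed genes averaged at least 1 TPM, and the noise was drawn independently for each library. That change is larger than any called difference of a member, so these rates do not apply to differences of the size reported here. Each library pooled 2 mice, so p-values measure the spread between pools.

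Named genes were the 8 members, up to 3 genes of smallest p per list in Sets A and B and the interaction, and for each member the 3 genes of highest r, some of which are not reported here; C1ql1 and calls outside these comparisons were named after their values were seen. The members and lists were chosen with earlier results of these data known. Alternatives were other filters, pseudocounts, scalings and variance models, FPKM, all 16 libraries in 1 fit, the highest entry per name, a nuclear RNA covariate and leaving out each library; leaving out the 3 libraries low in nuclear RNA was chosen after seeing the data. Symbols are those of the tables. Python 3 scripts drew the figures.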

Additional observations from a re-analysis of the deposited data

Results flagged for a closer look

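The interaction test of Sox10 gave a difference of the running effect between the genotypes of -0.384 on the log2 scale (limma adjusted p = 0.797, 16 libraries, called at the unadjusted threshold). The call held in 6 of the 16 fits that left out 1 library and was lost with the nuclear RNA score in the model (-0.33). In p16 KO mice 3 of 4 running libraries lay below all sedentary ones, and in p16 WT mice the ranges overlapped (21.3 to 25.5 TPM running, 17.6 to 24.4 TPM sedentary). The lowest sedentary p16 WT library, replicate 4, and the highest sedentary p16 KO library, replicate 8, both enter this value. No library of any member stood apart from its group in the 32 groups of 4 in a test of the largest gap against the range of the 4 libraries.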

How the results depend on the processing

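With the nuclear RNA score added to the model the members called numbered 1 in Set B, 2 in Set E and 0 in the interaction, and the log2 differences were 0.043 for Olig1 and 0.10 for Gpr17 in Set A and 0.044 for Cspg4 and -0.051 for Bcas1 in Set B, each of which turned sign. Without the 3 libraries low in nuclear RNA the members called were 0 in Sets A and B. Of all genes 4.9% were called higher and 3.59% lower in that fit of Set A, and 3.19% and 3.48% in Set B. Olig1 (0.044) and Gpr17 (0.12) in Set A and Cspg4 (0.079) in Set B turned sign. In Set D 3 members were then called, Olig1 being added, against 5.92% of all genes higher and 5.25% lower in that fit. With all 16 libraries in 1 fit the members called were 2 in Set B and 1 in Set D, and with no filter or no variance trend 0 in Set E. For these fits and those with the nuclear RNA score no share of all genes called is given. Their counts are therefore not set against a background. With TPM as deposited Gpr17 in Set A was 0.032, and with quantile normalization Enpp6 in Set A was -0.18 and Cspg4 in Set B 0.020. The cause of these changes was not tested, except that leaving out libraries also leaves fewer samples.

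When 1 library was left out, the members called ranged from 1 to 4 in Set B, 0 to 1 in Set C, 0 to 3 in Set D, 0 to 3 in Set E and 0 to 1 in the interaction. No share of all genes called is given for these fits, so the ranges are not set against a background. The log2 differences ranged from -0.12 to 0.075 for Gpr17, -0.070 to 0.41 for Bcas1 and -0.11 to 0.30 for Enpp6 in Set A. In Set B they ranged from -0.12 to 0.070 for Cspg4, -0.081 to 0.30 for Bcas1 and -0.29 to 0.26 for Enpp6. Those of Gpr17 ranged from -0.054 to 0.22 in Set C and from -0.25 to 0.020 in the interaction, and that of Sox10 in Set E from -0.11 to 0.0027. No gene whose sign turned was called in that same comparison with all libraries and the main settings. Of 667 values of named genes under other settings 598 kept sign and call, 57 lost the call, 2 gained it and 10 turned sign. Of 552 values with 1 library left out, 421 kept sign and call, 111 lost the call, 3 gained it and 17 turned sign.

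No paired analysis was possible because the 4 groups have no replicate number in common. The tables give no read counts, so the limit that depth sets on single values is not known, and the comparisons rest on 4 pools per group.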
